A study of Homo sapiens with 3 samples.

Results

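SNORD24, SNORD36A, SNORD36B and SNORD36C are 4 small nucleolar RNAs (snoRNAs) cut from introns of one gene, RPL7A, which encodes a protein of the large ribosomal subunit. They were taken as the box C/D entries that bear their older U names, out of 259 snoRNAs with reads, 147 of them of the box C/D class. Small RNA of HEK293 cells, an established human embryonic kidney line grown in DMEM with foetal bovine serum, was sequenced in 3 libraries that form 1 untreated group. Each record of a table gave a snoRNA, the length of a read, where it began and ended in the snoRNA entry, and a count of reads. Nothing in the labels tells whether the 3 libraries stem from different cultures, so every spread and p-value below measures these libraries, which may differ for technical reasons only.

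Box C/D snoRNAs bind a set of core proteins, among them the methyltransferase fibrillarin, and guide 2′-O-methylation of ribosomal RNA. The proteins bind a terminal structure in which box C, near the 5′ end, faces box D, near the 3′ end, and a stretch upstream of box D or of the internal box D′ pairs with the rRNA. In human cells most of them lie in introns, often of ribosomal protein genes, and are released from the spliced intron by trimming from both ends, so that snoRNAs of one host start from one precursor. SNORD24 guides the methylation of large subunit rRNA and is widely used, under the name RNU24, as a reference in quantitative PCR (qPCR) of small RNA. The SNORD36 snoRNAs are related to each other. SNORD36A and SNORD36B guide small subunit rRNA, and SNORD36C guides large subunit rRNA.

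The 4 sequences are shown because read ends and fragments below are placed on them. They were taken from GENCODE 29 on GRCh38, where all 4 lie on the plus strand of chromosome 9, and capitals mark the core of box C (TGATG), the internal CTGA (box D′) and the CTGA of box D.
SNORD24: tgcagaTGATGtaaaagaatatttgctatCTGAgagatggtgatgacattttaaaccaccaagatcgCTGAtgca
SNORD36B: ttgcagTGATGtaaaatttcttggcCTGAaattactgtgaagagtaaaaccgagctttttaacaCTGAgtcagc
SNORD36A: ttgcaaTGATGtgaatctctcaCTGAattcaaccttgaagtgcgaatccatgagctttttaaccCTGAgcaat
SNORD36C: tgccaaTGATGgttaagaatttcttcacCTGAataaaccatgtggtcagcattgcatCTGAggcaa

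In RPL7A (chr9:133348214-133351426), SNORD24 lay in intron 2 (chr9:133349396-133349470), SNORD36B in intron 4 (chr9:133350095-133350168), SNORD36A in intron 5 (chr9:133350456-133350528) and SNORD36C in intron 6 (chr9:133350847-133350912), of 7 introns. The letters TGATG occur in the first 20 nt of 80.2% and CTGA in the last 15 nt of 91.3% of 288 SNORD transcripts of GENCODE, searched on the transcript strand, so both boxes are features of the class. SNORD24 holds 2 more copies of TGATG, at positions 41 to 45 and overlapping its box D. SNORD36A and SNORD36B were identical at 70.9% of aligned positions, SNORD36A and SNORD36C at 62.5%, and SNORD36B and SNORD36C at 60%. SNORD24 shared 51.2% to 57.6% with the SNORD36 snoRNAs. The longest run shared by any pair was 12 nt, shorter than the shortest read of 18 nt, so no read could match 2 of the 4 exactly. Outside the host, SNORD36A shared a run of 29 nt at its 3′ end with RF00049, an unnamed relative, and 2 of its 177 reads lay wholly inside it. SNORD24 shared 19 nt with MAGI2-AS3, and 0 of its 1283 reads lay inside that run.

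SNORD24 dominated the host in every library. It had 581 reads in library 1, 292 in library 2 and 410 in library 3, which was 2.91%, 2.44% and 2.15% of the 19989, 11958 and 19092 snoRNA counts of these libraries. By mean share (2.50% ± 0.38, SD, n = 3) it stood at place 8 of 259 snoRNAs. SNORD36B had 79, 43 and 51 reads in libraries 1, 2 and 3 (0.341% ± 0.066 of counts, SD, n = 3). SNORD36C had 46, 38 and 72 reads in the same order (0.308% ± 0.074), and SNORD36A had 24, 30 and 123 (0.338% ± 0.27). The 3 SNORD36 snoRNAs therefore lay at places 78, 79 and 85, next to the median box C/D snoRNA (0.332%). No read of any of the 4 lay on the opposite strand. In library 1, the only one whose column in a second deposited table could be matched, that table listed 581, 79, 24 and 46 counts for SNORD24, SNORD36B, SNORD36A and SNORD36C, the same as the sums of the records.

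**Figure D1:**
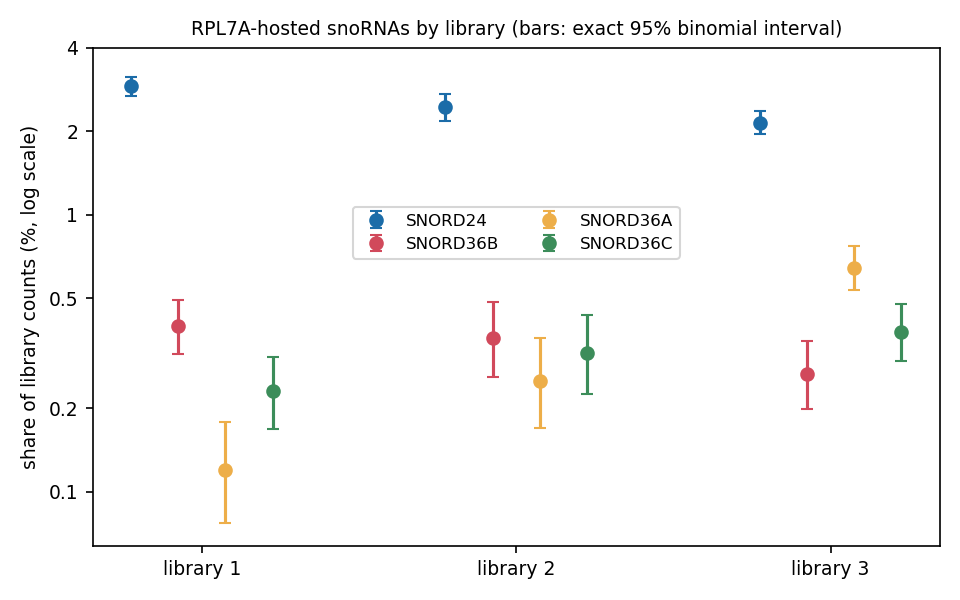
Share of library counts (percent, log scale) of each RPL7A-hosted snoRNA in libraries 1 to 3, with bars for the exact 95% binomial interval, which covers counting error only. SNORD24 lies above the others in each library, while SNORD36A is the lowest of the 4 in library 1 (0.120%) and the second highest in library 3 (0.644%).

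By reads, SNORD24 was 7.38-fold above SNORD36B, 8.21-fold above SNORD36C and 9.23-fold above SNORD36A (geometric means over 3 libraries). Whether different snoRNAs were captured equally well was not tested, so these are ratios of reads. Per nucleotide of the entry, a setting added after seeing the data, SNORD24 was 6.98-fold, 7.44-fold and 8.86-fold above them in the same order. It was the higher one in 3 of 3 libraries for each of these pairs, and its exact intervals did not overlap those of the others in any library. An exact permutation test that flips the sign of each library's log2 ratio (two-sided, 3 libraries) cannot go below p = 0.25, which all 3 pairs reached (0.5 after Benjamini-Hochberg adjustment over the 6 pairs), so this test records direction only. The ratio of read counts of SNORD24 to SNORD36B was nearly fixed, at 7.35, 6.79 and 8.04 in libraries 1, 2 and 3. The ratio of SNORD24 to SNORD36C was 12.6, 7.68 and 5.69, and that to SNORD36A was 24.2, 9.73 and 3.33.

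Among the SNORD36 snoRNAs, no order held in all libraries. SNORD36A made up 23.3% (95% exact binomial interval 15.5% to 32.7%) of the reads of SNORD36A and SNORD36B together in library 1, 41.1% (29.7% to 53.2%) in library 2 and 70.7% (63.3% to 77.3%) in library 3. The intervals of libraries 1 and 3 do not overlap, so the order of these 2 snoRNAs turned round between libraries by more than counting error. The ratio of SNORD36A to SNORD36C was 0.52, 0.79 and 1.71 in libraries 1, 2 and 3, and that of SNORD36B to SNORD36C was 1.72, 1.13 and 0.71. Each of these 3 pairs had an exact sign-flip p of 0.75 (0.75 adjusted over the 6 pairs). Over the 3 libraries, the geometric mean ratio of reads was 0.80 for SNORD36A to SNORD36B, 0.89 for SNORD36A to SNORD36C and 1.11 for SNORD36B to SNORD36C. In each pair this mean lay inside the range of the libraries. Per nucleotide, the means were 0.79, 0.84 and 1.07 in the same order.

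As a share of library counts, the sum of the 4 snoRNAs varied less than any one of them. It was 3.65%, 3.37% and 3.44% of counts in libraries 1, 2 and 3 (mean 3.49% ± 0.15), so that the highest was 1.08 times the lowest and the exact 95% intervals of all 3 libraries overlapped. SNORD24 held 79.6%, 72.5% and 62.5% of these reads, SNORD36A 3.29%, 7.44% and 18.8%, and SNORD36C 6.30%, 9.43% and 11.0%. In library 3, SNORD24 and SNORD36B thus had their lowest share of the host's reads, and SNORD36A and SNORD36C their highest. RPL7A mRNA was not measured here.

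The spread between libraries was described as the highest over the lowest share over 125 snoRNAs that reached 10 counts in each library, without a test. This measure includes counting error, which is larger for snoRNAs with few reads. SNORD24 spread 1.35-fold (place 18 of 125, counting from the least), SNORD36B 1.48-fold (place 34), SNORD36C 1.64-fold (place 50) and SNORD36A 5.37-fold (place 122), against a median of 1.79-fold. SNORD36A was therefore among the 4 most spread of those ranked. The place of SNORD24 depended on the libraries and on scaling. Without library 2 it kept its 1.35-fold, but stood at place 77 of the 158 snoRNAs then ranked. It spread 1.56-fold (place 42) with TMM factors, edgeR's trimmed-mean scaling, and 1.68-fold (place 56) with DESeq2 size factors, while SNORD36A stood at place 120 with both. The sum of the 4 also spread more with either than with library totals.

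**Figure D2:**
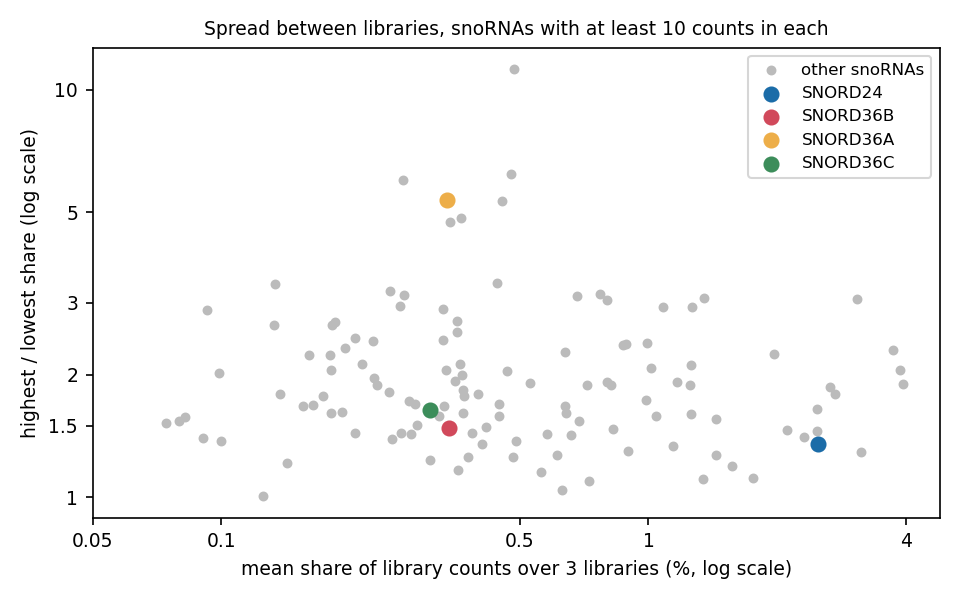
Mean share of library counts (percent, log scale) against the highest over the lowest share among the 3 libraries (log scale) for 125 snoRNAs, with the RPL7A-hosted ones in colour. SNORD24 combines a high share with a spread of 1.35, and SNORD36A lies near the top with 5.37.

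As a reference, SNORD24 was compared with other snoRNAs used in qPCR. Of 14 such snoRNAs, SNORD24 included, all had reads and 13 had at least 10 counts in each library. Their median spread was 2.01-fold, against 1.79-fold for all 125, and 0 of them spread less than SNORD24. Most of them had fewer reads than SNORD24 and so carry more counting error, which was not removed. This place of SNORD24 depended on the libraries and on scaling, though it was kept without library 1. With TMM or DESeq2 factors, where SNORD24 spread 1.56-fold and 1.68-fold, SNORD95 (69, 40 and 92 reads) and SNORD43 (149, 111 and 247 reads) spread less. Without library 2, SNORD44 (3.09% and 2.46% of counts in libraries 1 and 3) spread less than SNORD24 (2.91% and 2.15%). Without library 3, SNORD95 (0.345% and 0.335% of counts in libraries 1 and 2) was among those that spread less than SNORD24 (2.91% and 2.44%). By share, the leading qPCR snoRNAs were SNORD44 (spread 2.30-fold), SNORD24, SNORD38B (1.46-fold) and SNORD49A (1.88-fold). Dividing every other snoRNA by SNORD24 gave a median spread of 2.13-fold over 124 snoRNAs, higher than the 1.79-fold obtained with library totals. Dividing by SNORD36A gave 4.81-fold, by SNORD36B 2.19-fold and by SNORD36C 1.97-fold. Every snoRNA tried as divisor gave a median above that of library totals, so being above it does not single out SNORD24. Of the qPCR snoRNAs, SNORD95 gave the lowest median (1.83-fold), followed by SNORD43 (1.95-fold).

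Among 30 other box C/D snoRNAs hosted by ribosomal protein genes, all had reads and 25 could be ranked. Their median spread was 1.79-fold, as for all 125, 4 spread less than SNORD24 and 0 more than SNORD36A. The leading ones by share were SNORD100 (spread 1.29-fold), SNORD42B (1.79-fold), SNORD38B (1.46-fold) and SNORD58C (2.25-fold). The snoRNAs whose shares over the 3 libraries were most like those of SNORD24, by the distance between log2 shares centred on each snoRNA's mean, were SNORD38B (0.11), SNORD76 (0.12) and SNORD4B (0.13). With 3 libraries this likeness is a description.

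Most reads covered a whole snoRNA, and the first position was sharper than the last in SNORD24 and SNORD36A. SNORD24 reads began at position 1 in 88.1%, 84.9% and 83.7% of cases in libraries 1, 2 and 3 (mean 85.6% ± 2.3) and ended at position 75 in 67.5% ± 5.9. SNORD36A reads began at 1 (88.1% ± 7.8) and ended at 72 (70.5% ± 7.0), and SNORD36B reads began at 3 (75.4% ± 1.6) and ended at 71 (72.2% ± 8.1). These last positions, and position 1, are also the outer positions of the entries, so longer ends could not have been seen there. Between the commonest ends and the boxes lay 6 nt before the core of box C and 4 nt after box D in SNORD24 and SNORD36A, 5 and 2 nt in SNORD36B, and 6 and 5 nt in SNORD36C.

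SNORD36C had a mixed population of ends. Its reads began at position 2 in 60.9%, 23.7% and 44.4% of cases and at position 1 in 26.1%, 28.9% and 37.5%, in libraries 1, 2 and 3. They ended at 67 in 54.0% ± 3.9 and at 66 in 32.6%, 21.1% and 25%. The ends came in pairs: reads from 1 to 67 numbered 11, 7 and 21 and those from 2 to 66 numbered 13, 4 and 14, while reads from 2 to 67 numbered 7, 1 and 10 and those from 1 to 66 numbered 1, 1 and 4. In the interval from 2 to 66, the first 4 bases (tgcc) are complementary to the last 4 (ggca). The same holds for positions 1 to 75 of SNORD24 (tgca and tgca) and 1 to 72 of SNORD36A (ttgc and gcaa), and for 0 bases of positions 3 to 71 of SNORD36B. The SNORD36B entry ends at 71, while the sequence printed above runs on past it, so pairs with those further bases were not counted.

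Reads of one interval and length were listed in several records, which were taken as different sequences, although the tables used here hold no read letters to show it. Of SNORD24 reads spanning 1 to 75 with a length of 75 nt, the largest record had 165, 75 and 110 reads in libraries 1, 2 and 3, and the next had 98, 40 and 74. The second thus had 60.6% of the count of the first, place 11 of 125 snoRNAs, against a median of 7.28%. SNORD36A also had a large second record over 1 to 72 (5, 12 and 51 reads for the first, 3, 6 and 17 for the second). SNORD36B over 3 to 71 had 39, 19 and 17 reads for the first and 1, 0 and 1 for the second, and SNORD36C over 1 to 67 had 7, 3 and 18 against 1, 0 and 1.

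Reads spanning at least 90% of the snoRNA made up 82.4%, 64.0% and 73.9% of SNORD24 reads in libraries 1, 2 and 3. The shares were 88.6%, 65.1% and 72.5% in SNORD36B, 62.5%, 86.7% and 89.4% in SNORD36A, and 71.7%, 44.7% and 75% in SNORD36C, against 69.8%, 57.3% and 67.4% over all other box C/D snoRNAs. Library 2 was the lowest for SNORD24, SNORD36B, SNORD36C and the other box C/D snoRNAs, but not for SNORD36A, whose lowest value in library 1 rests on 24 reads.

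**Figure D3:**
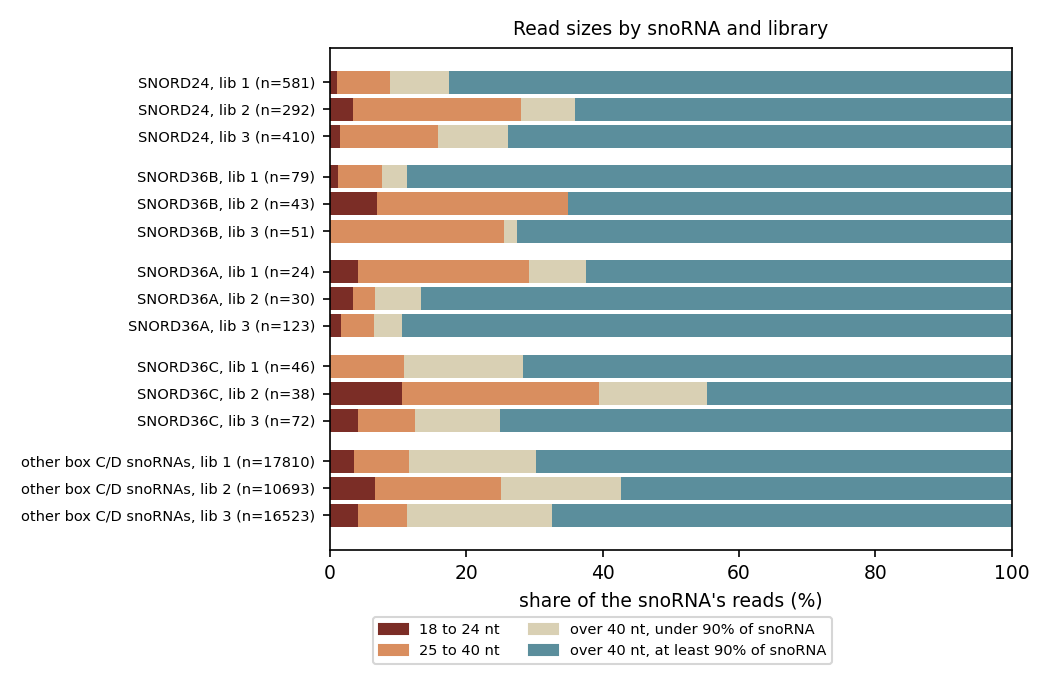
Share of reads (percent) in 4 size classes for each RPL7A-hosted snoRNA and all other box C/D snoRNAs, by library, with the number of reads behind each bar. Reads of at least 90% of the snoRNA are the largest class in every bar, and library 2 has more reads of up to 40 nt in SNORD24 (28.1%), SNORD36B (34.9%), SNORD36C (39.5%) and the other box C/D snoRNAs (25.1%).

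Reads of up to 40 nt numbered 51, 82 and 65 in SNORD24, 6, 15 and 13 in SNORD36B, 7, 2 and 8 in SNORD36A and 5, 15 and 9 in SNORD36C. Their mean share was 17.6% ± 9.8, 22.7% ± 14, 14.1% ± 13 and 20.9% ± 16 of reads (SD, n = 3), against 16.0% ± 7.9 in the other box C/D snoRNAs, so the groups overlapped widely. In edgeR's quasi-likelihood test of short against longer reads, with library as block and each snoRNA set against the typical one, 42.4% of 125 snoRNAs passed an adjusted p of 0.05 and 0 of the 4 did. The log2 differences were 0.16 ± 0.34 for SNORD24 (edgeR adjusted p = 0.757), 0.58 ± 0.51 for SNORD36B (0.379), -0.38 ± 0.59 for SNORD36A (0.647) and 0.43 ± 0.53 for SNORD36C (0.545), each with its SE; at an unadjusted p of 0.05 the count was also 0, and with DESeq2 it was 0. With short reads counted up to 50 nt, SNORD36C passed with 1.18 (edgeR adjusted p = 0.0499). Reads of the size of a miRNA (20 to 24 nt) numbered 12 of 1283 in SNORD24, 3 of 173 in SNORD36B, 3 of 177 in SNORD36A and 0 of 156 in SNORD36C. For the count of 0, a limit of 3 reads corresponds to a share of 1.92%, which is approximate and not an exact interval.

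Short SNORD24 reads came mostly from the 5′ side, and over the 3 libraries more of these stopped at position 35 than at any other. The fragment from 1 to 35 had 7, 31 and 22 reads in libraries 1, 2 and 3, the most of any interval after the whole snoRNA in libraries 2 and 3 and in all 3 together (in library 1 the interval from 1 to 74, with 22, had more), and the fragment that would make up the rest, from 36 to 75, had 6, 6 and 1. These and the leading short fragments of the other 3 are shown with the boxes in capitals, since their inner ends fall beside box D′.
SNORD24 1 to 35: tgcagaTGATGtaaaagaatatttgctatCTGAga
SNORD24 36 to 75: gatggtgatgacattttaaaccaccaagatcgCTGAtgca
SNORD36B 3 to 32: tgcagTGATGtaaaatttcttggcCTGAaa
SNORD36B 33 to 71: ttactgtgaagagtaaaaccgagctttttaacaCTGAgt
SNORD36A 1 to 26: ttgcaaTGATGtgaatctctcaCTGA
SNORD36C 36 to 67: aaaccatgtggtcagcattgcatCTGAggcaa

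The leading short fragment of SNORD36B, 3 to 32, had 0, 5 and 4 reads in libraries 1, 2 and 3, and its other side, 33 to 71, had 0, 0 and 3. SNORD36C was led by its 3′ side, with 0, 6 and 1 reads from 36 to 67. The commonest short fragment of SNORD36A, 1 to 26, had 3, 0 and 0 reads, so its short reads did not repeat one interval in libraries 2 and 3.

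The inner ends of these pieces were counted from the last base of box D′, for reads of up to 40 nt that share one outer end with the snoRNA to within 2 nt. In SNORD24, 78 of 140 5′ pieces stopped exactly 2 nt past box D′, and 20 of 34 3′ pieces began at the next base. By library, these were 10 of 32, 40 of 61 and 28 of 47 5′ pieces, and 9 of 9, 8 of 14 and 3 of 11 3′ pieces. In SNORD36B the same junction held 10 of 18 5′ pieces (0, 5 and 5 in libraries 1, 2 and 3) and 6 of 16 3′ pieces (2, 0 and 4). In SNORD36C it held 11 of 25 3′ pieces, 9 of them in library 2 and 1 each in libraries 1 and 3, while 0 of 3 5′ pieces ended there. In SNORD36A, 1 of 14 5′ pieces did.

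**Figure D4:**
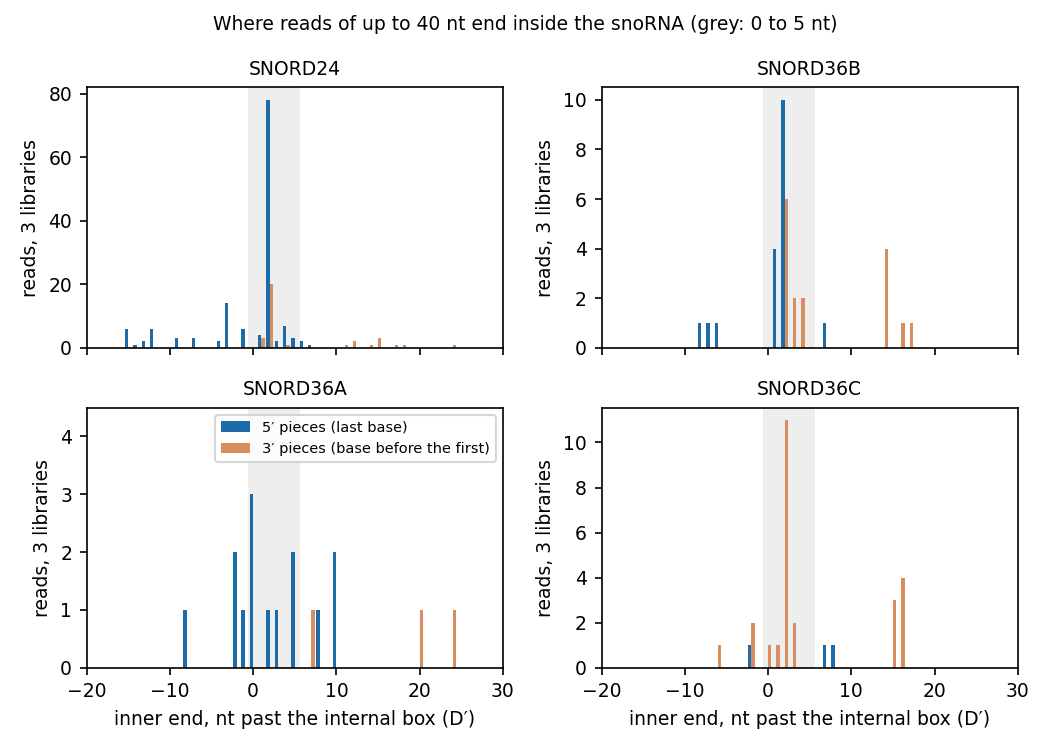
Number of reads of up to 40 nt (3 libraries together) by the distance of their inner end from the last base of box D′, in nt, for each RPL7A-hosted snoRNA, with 5′ and 3′ pieces in separate colours and 0 to 5 nt shaded. SNORD24 and SNORD36B peak at 2 nt for both kinds of piece (78 and 20 reads, 10 and 6 reads), SNORD36C for the 3′ pieces (11 reads, 9 of them from library 2), and SNORD36A has at most 3 reads at any distance.

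Within 0 to 5 nt past box D′ lay the inner ends of 118 of 174 pieces of SNORD24 (67.8%), 24 of 34 of SNORD36B (70.6%), 15 of 28 of SNORD36C (53.6%) and 7 of 17 of SNORD36A (41.2%). In 17 other box C/D snoRNAs with 1 internal CTGA and at least 10 pieces, the median was 32% (quartiles 26% and 48.6%). None of these 17 exceeded SNORD24 or SNORD36B, 3 exceeded SNORD36C and 7 exceeded SNORD36A. The window was chosen after the ends were seen and all 4 snoRNAs have such a box, so this is a description. By library, the 5′ pieces of SNORD24 fell in the window in 18 of 32, 44 of 61 and 32 of 47 cases and its 3′ pieces in 9 of 9, 10 of 14 and 5 of 11. The 3′ pieces of SNORD36B did so in 4 of 4, 0 of 5 and 6 of 7 cases. The value of SNORD36C rested on library 2: without it, 4 of 13 pieces (30.8%) lay in the window, against a median of 40% in the other 17. Without library 1, 2 of the 17 exceeded SNORD24 (68.4%) and SNORD36B (67.9%).

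Reads centred in the 5′ or the 3′ part of the entry were compared with edgeR's quasi-likelihood test (library as block) over 108 snoRNAs, of which 66.7% passed an adjusted p of 0.05, 39.8% with more 5′ reads and 26.9% with more 3′ reads. SNORD24 had 45, 26 and 43 reads in the 3′ part and 148, 104 and 115 in the 5′ part, a log2 difference of -1.70 ± 0.22 (SE, edgeR adjusted p = 0.000976). It was -0.97 with DESeq2 (adjusted p = 0.0312) and -2.81 among reads spanning at most 50% of the snoRNA (edgeR adjusted p = 0.000606). SNORD36A had 4, 2 and 8 in the 3′ part and 9, 8 and 27 in the 5′ part (-1.60 ± 0.39, edgeR adjusted p = 0.0110). This call was lost without library 1 (edgeR adjusted p = 0.0620), without library 3 (0.175) and with DESeq2 (0.476). Nearly whole reads were counted too. The 5′ part of SNORD36A held its reads from 1 to 71 (3, 4 and 8) and from 1 to 70 (0, 0 and 6). That of SNORD24 held its reads from 1 to 74 (22, 9 and 13). SNORD36C had 6, 18 and 12 in the 3′ part and 33, 19 and 49 in the 5′ part (-1.48 ± 0.57, edgeR adjusted p = 0.0602). It passed without library 2 (-2.19, edgeR adjusted p = 0.00196), where its 2 parts were nearly equal. With at least 20 placed reads in every library it also passed (edgeR adjusted p = 0.0368). Its 5′ part held nearly whole reads too, those from 1 to 67 (11, 7 and 21), from 2 to 66 (13, 4 and 14) and from 1 to 66 (1, 1 and 4). The values of SNORD36A and SNORD36C are thus no measure of 5′ fragments alone.

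SNORD36B alone of the 4 had more 3′ reads, with 67, 30 and 43 in the 3′ part and 9, 12 and 7 in the 5′ part (log2 2.26 ± 0.45, SE, edgeR adjusted p = 0.00514, and 3.01 with DESeq2). That direction depended on where the middle was set. Its whole-length reads, from 3 to 71, are centred past the middle of the entry because they start 2 nt inside it. With the middle taken between the commonest first and last position of each snoRNA, SNORD36B had 9, 5 and 7 reads in the 3′ part and 20, 19 and 16 in the 5′ part, and the log2 difference became -1.39 (edgeR adjusted p = 0.0312). That 5′ part held its nearly whole reads from 2 to 71 (5, 4 and 4). For SNORD24, SNORD36A and SNORD36C, the middle between the commonest ends is also the middle of the entry. Their reads were therefore split as before, and this setting could not check them. In this fit SNORD24 had -1.70 (edgeR adjusted p = 0.00149), SNORD36A -1.60 (0.0145) and SNORD36C -1.48 (0.0677). Over the 101 snoRNAs then tested, 53.5% passed, 40.6% with more 5′ reads and 12.9% with more 3′ reads.

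Reads whose length differed from the span of their positions, read as gapped alignments, numbered 142, 46 and 100 in SNORD24, 20, 4 and 15 in SNORD36B, 5, 4 and 27 in SNORD36A and 3, 6 and 8 in SNORD36C. In edgeR's test of gapped against ungapped reads, 35.2% of the 125 snoRNAs tested passed, and 16.0% of those tested passed with fewer gapped reads than the typical snoRNA. SNORD36C was among those with fewer (log2 -1.13 ± 0.47, SE, edgeR adjusted p = 0.0475), but it passed neither without library 1 (0.527), library 2 (0.0790) or library 3 (0.217) nor with DESeq2 (0.242). SNORD24 (0.04 ± 0.21, edgeR adjusted p = 0.894), SNORD36B (0.03 ± 0.39, 0.966) and SNORD36A (-0.19 ± 0.42, 0.773) did not pass.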

How the data were processed

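Per the file headers, the deposited tables hold raw counts of reads, each record with its snoRNA entry, read length and first and last position; several records can share all of these. After phenol and chloroform extraction, small RNA was purified on beads and ligated to adapters for Ion sequencing, per the labels' protocols. The submitters' processing notes name GRCh38.p10; for aligner and filters, the sources used here state nothing. A second deposited table had 2 columns that matched no sample and were not used. Libraries were numbered in deposition order.

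The 4 snoRNAs, the gene lists and the tests were chosen with earlier results of these data known. Entries were named through a RefSeq gene table (GRCh38.p14), whose starts also placed entries on GENCODE 29; the length of each of the 4 there equalled the highest position seen in its reads. Shares have exact (Clopper-Pearson) 95% intervals, which cover counting error only, as reads carry no molecular identifiers. Tests used counts with edgeR 4.0.16 (R 4.3.3) and Benjamini-Hochberg adjustment over all tested snoRNAs, with DESeq2 1.42.0 as an alternative. Only the edgeR tests were also run on simulated counts, and the outcome is not given here. Named were the 4 snoRNAs, their 3 commonest fragments and commonest one of up to 40 nt, the 3 snoRNAs most like SNORD24, and up to 4 of a list by share. SNORD95, SNORD43 and SNORD15B were named outside this rule, after their values were seen. The complementary fragments of SNORD24 and SNORD36B were added after seeing them. Python 3.11.15, pandas 2.3.3, SciPy 1.17.1, Biopython 1.88 and matplotlib 3.10.9 were used.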

Additional observations from a re-analysis of the deposited data

How the results depend on the processing

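All tests compared reads within a library, with the library as block or as the unit of a ratio; with 1 group there was no pairing of samples between groups to try. SNORD24 stayed above the SNORD36 snoRNAs with each library left out, per nucleotide, and with whole-length or ungapped reads only. Without library 1, SNORD36A to SNORD36B (log2 0.38), SNORD36A to SNORD36C (0.22) and SNORD36B to SNORD36C (-0.16) changed sign; leaving out 1 library at a time, they ranged over -1.12 to 0.38, -0.64 to 0.22 and -0.16 to 0.48. With whole-length reads only, SNORD36A to SNORD36C was 0.17, and with ungapped reads only, SNORD36B to SNORD36C was -0.029. Leaving out 1 library, the spread ranged over 1.14 to 1.35 (SNORD24), 2.09 to 5.37 (SNORD36A), 1.10 to 1.48 (SNORD36B) and 1.19 to 1.64 (SNORD36C); with DESeq2 size factors it was 1.68 for SNORD24 and 1.83 for SNORD36B.

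Counts of called snoRNAs moved with the setting, by edgeR unless named. More 5′ reads were called in 28 to 62 snoRNAs leaving out 1 library and in 28 with DESeq2, against 43; more 3′ reads in 24 to 37, against 29. With reads spanning at most 50% of the snoRNA, 9 had more 3′ and 11 more 5′ reads, and SNORD24 was the only one of the 4 tested; with the middle between the commonest ends, an alternative added after seeing the data, 13 had more 3′ reads and SNORD36B reversed to -1.39. Fewer short reads were called in 2 to 15 leaving out 1 library, in 11 with a limit of 30 nt and in 15 with DESeq2, against 23. More gapped reads were called in 4 to 15 leaving out 1 library, in 10 with DESeq2 and in 14 with whole-length reads only, against 24. Fewer gapped reads were called in 0 to 10 leaving out 1 library and in 9 with DESeq2, against 20; the count of 0 by edgeR, without library 2, had 25 at an unadjusted p under 0.05. The cause of these moves was not tested.

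Some values of the 4 that had not passed also changed sign. For short reads, SNORD36A ranged over -1.32 to 0.16 leaving out 1 library, being 0.16 without library 2 and 0.11 without library 3, SNORD24 -0.96 with the limit at 30 nt and -0.13 with no filter, and SNORD36C -0.91 with the limit at 30 nt. For gapped reads, SNORD24 was -0.0018, -0.0057 and -0.031 without libraries 1, 2 and 3, -0.012 with DESeq2, -0.036 with column totals and -0.19 with no filter. SNORD36B ranged over -0.25 to 0.19 leaving out 1 library, being -0.11 without library 1 and -0.25 without library 3; it was -0.079 with DESeq2, -0.052 with column totals, -0.21 with no filter and -0.065 with whole-length reads only. SNORD36A was not tested for position at a minimum of 20 reads.

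Leaving out libraries for the breaks past box D′, and levels per nucleotide, were also chosen after seeing the data. The SNORD36 snoRNAs rest on 24 to 123 reads a library, which limits what their fragments can show, and the depth of 11958 to 19989 counts puts the floor of 3 counts at 0.0150% to 0.0251% of a library.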
